A study of Mus musculus with 2 samples.

Results

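The genes described here are 8 immediate-early genes (*Fos*, *Fosb*, *Jun*, *Junb*, *Egr1*, *Atf3*, *Ier2* and *Dusp1*) and 2 heat-shock genes (*Hspa1a* and *Hspa1b*), read as a sign of the stress of cell dissociation. They were chosen by symbol, and all 10 of 10 were found among the 28000 genes of the deposited tables. The article processed 3 embryos of each genotype, and 1 HIRA WT library (TyrCre::Hira wt/wt tdTomato) and 1 HIRA KO library (TyrCre::Hira fl/fl tdTomato) were analysed here, both from trunk skin of E15.5 mouse embryos of a mixed strain close to C57BL/6J. Skin was digested with dispase and DNaseI for 45 min at 37 °C and passed through needles, and live tdTomato+ cells were sorted and loaded on the 10x Chromium platform for 3′ counting. Both groups carry the TyrCreB transgene and a Cre-dependent tdTomato reporter and differ by genotype in the floxed *Hira* alleles. Cre is driven by the tyrosinase promoter, which also marks other lineages of the neural crest besides melanoblasts. No library was made without digestion and sorting, so RNA present in the tissue and RNA made during dissociation cannot be told apart.

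Immediate-early genes are transcribed within minutes of a stimulus, from transcription factors that already lie in the cell, and their RNA is short-lived. Growth factors and cytokines switch them on through the ERK and p38 kinases in intact skin, and enzymatic digestion of tissue at body temperature is a known trigger too. The inducible HSP70 genes answer to misfolded protein through the factor HSF1, so the 2 groups of genes answer to different signals.

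The HIRA WT library held 7073939 UMIs in 1546 barcodes (median 3961 per barcode) and the HIRA KO library 5049514 UMIs in 846 barcodes (median 5152.5), and the libraries shared 0 barcodes. After filtering, 1540 WT and 828 KO cells remained. Levels are UMIs of a gene over all UMIs of the cells of a type in a library, scaled to a common total (CPM). *Hira* had 82 UMIs in the WT and 50 in the KO library, and in the melanoblast-like cells it had 35 UMIs in WT and 3 in KO (13.8 and 3.53 CPM), a log2 ratio of −1.97 (−4.32 to −0.31). It had 18 and 9 UMIs in glial-like cells (−0.54, −1.88 to 0.68) and 9 and 17 in mesenchymal-like cells (0.41, −0.84 to 1.76), with no clear direction. A 3′ tag may come from outside the deleted stretch, so these counts do not check the deletion. *Xist* had 16822 UMIs in WT and 23 in KO, while the Y-linked *Ddx3y* had 1 and 236, so the WT library came from female and the KO library from male tissue. With 1 library per genotype analysed here, genotype, sex, embryo and handling cannot be told apart in any comparison below, and no test was possible. By sex and number of cells the libraries are nearest to the article's samples WT1 and KO1. The article describes these as littermates that were processed at the same time and shared a sequencing lane.

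Cells fell into 20 clusters and 10 cell types named by marker genes. Melanoblast-like cells numbered 534 in WT and 139 in KO, glial-like cells 448 and 254, and mesenchymal-like cells 230 and 274. Most WT melanoblast-like cells lay in cluster 0 (337 WT and 15 KO cells), and most KO ones in cluster 1 (2 WT and 78 KO cells), so the melanoblast comparison was largely between different clusters. A UMI marks 1 captured 3′ end, so levels of different genes were compared without scaling to length. All intervals are 95% intervals of counting error, exact Poisson for levels, Clopper-Pearson for shares of cells and conditional binomial for ratios. They hold no variation between embryos. Those of levels and ratios also take UMIs as independent, so they hold no variation between cells beyond counting error. Where cells of a type vary more than that, as described further below for the summed immediate-early genes, these intervals are too narrow. Intervals called apart, or above or below zero, are so by counting error alone.

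Markers of other cell types stood at different levels in the 2 libraries, most of the abundant ones higher in KO. In melanoblast-like cells the 9 erythroid markers summed to 78.6 CPM in WT (4 of 9 detected) and 1120 in KO (6 of 9 detected), with *Hbb-bs* the most abundant in both. The same markers stood at 1131 CPM in KO glial-like and 1207 in KO mesenchymal-like cells, so the KO level was much alike in all 3 types. The 9 mesenchymal markers were all detected in melanoblast-like cells of both libraries and summed to 203 CPM in WT, led by *Fbln1*, and 674 in KO, led by *Col1a2*. The 10 keratinocyte markers summed to 71.5 and 549 CPM (9 and 8 of 10 detected, led by *Krt10*), and the 9 neutrophil markers to 36.8 and 222 (8 and 7 of 9, led by *S100a8*). Other lists were higher in WT: glial markers had 414 CPM in WT and 322 in KO (10 of 10 detected in both), mast cell markers 120.5 and 18.8 (6 and 5 of 9, led by *Cma1*), and macrophage markers 95.6 and 62.35 (9 of 9, led by *Pf4* in WT and *Fcer1g* in KO). Mast cell-like and macrophage-like cells are rich in immediate-early RNA, as are mesenchymal-like cells. How far such RNA adds to the immediate-early counts was not tested, and values less a share of mesenchymal RNA are given further below.

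The summed level of the 8 immediate-early genes differed widely between cell types. In WT, among the 8 types with at least 20 cells, neutrophil-like cells had 4689.7 CPM, mast cell-like 4388, mesenchymal-like 3583, macrophage-like 3362, endothelial-like 1878, glial-like 1436, adipocyte-like 1088 and melanoblast-like cells 422. The intervals of neutrophil-like and mast cell-like cells overlapped, as did those of mesenchymal-like and macrophage-like cells, and the other neighbours in this order were apart. In KO the order was mesenchymal-like (4637), neutrophil-like (4258), glial-like (1750.2), keratinocyte-like (1141) and melanoblast-like (548), and only the first 2 overlapped. Melanoblast-like cells were lowest in both libraries, and the mesenchymal-like level was 8.49-fold theirs in WT (log2 3.09, 2.99 to 3.18) and 8.46-fold in KO. The glial-like level was 3.40-fold that of melanoblast-like cells in WT. Glial-like cluster 6 held 1526 of the 2352 UMIs behind that level, and the other glial-like clusters lay between 501 and 1217 CPM. The neutrophil-like cluster also raised 6 of 9 monocyte or dendritic markers besides 6 of 9 neutrophil markers, so its name is a broad one.

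**Figure D1:**
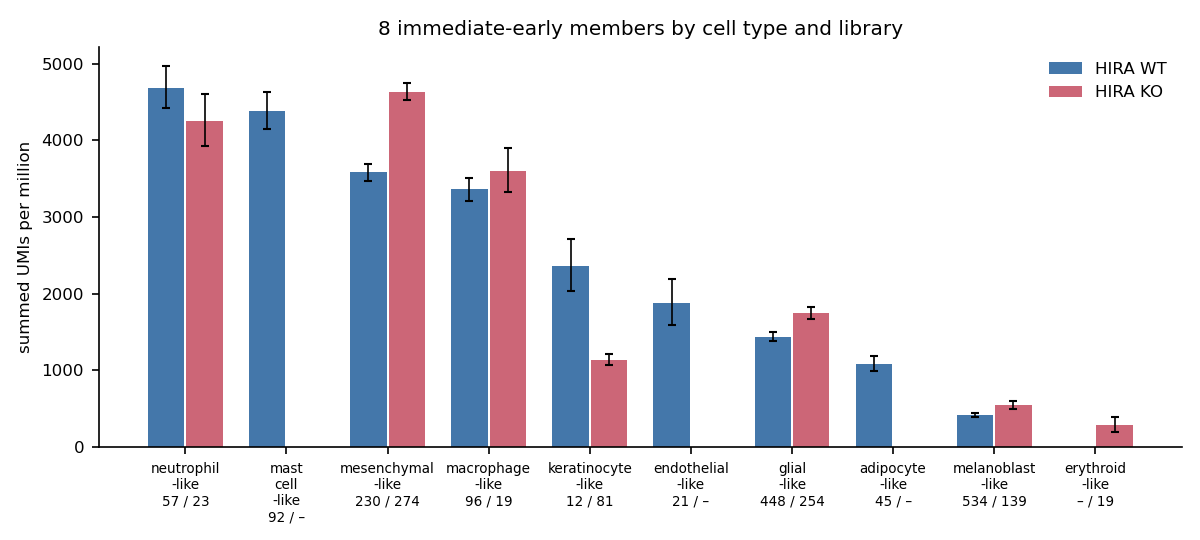
Summed CPM of the 8 immediate-early genes, by cell type and library. Bars are levels with 95% Poisson intervals, the numbers below each name are WT and KO cells, bars with under 10 cells are not drawn, and the melanoblast-like bars stand below every other type with at least 20 cells.

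*Fos* encodes the subunit of the AP-1 transcription factor that must pair with a JUN protein to bind DNA, and it was the most abundant member in glial-like, mesenchymal-like and neutrophil-like cells. Melanoblast-like cells had 102.7 CPM in WT and 185.9 in KO (260 and 158 UMIs), and it stood at 538.5 and 678 in glial-like cells, and at 1083 and 1535 in mesenchymal-like cells. The KO level was above the WT level in each of the 3 types with intervals apart, at log2 ratios of 0.86 (0.56 to 1.15), 0.33 (0.19 to 0.47) and 0.50 (0.40 to 0.60). Neutrophil-like cells had the highest *Fos* level in both libraries, 1826 and 1898 CPM, and there the ratio of 0.06 (−0.17 to 0.28) spanned zero. Without the clusters that came mostly from 1 library, the melanoblast ratio of *Fos* was 0.30 (−0.19 to 0.77).

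*Fosb*, a close relative of *Fos*, was among the scarcest members. In mesenchymal-like cells it stood at 48.4 CPM in WT and 107.9 in KO (54 and 171 UMIs), so the log2 ratio was 1.16 (0.71 to 1.62). Counts were 24 and 26 UMIs in glial-like cells and 18 and 8 in melanoblast-like cells, and both ratios, 0.57 and 0.40, had intervals across zero. Macrophage-like cells went the other way, with 98.2 CPM in WT and 29.15 in KO, but the KO value rests on 5 UMIs in 19 cells. *Fosb* was thus higher in KO in mesenchymal-like cells, and its ratio there was 0.40 when only shared clusters were used at equal weight, an alternative chosen after seeing the data.

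*Jun* encodes the AP-1 partner that can also pair with itself. It stood at 86.9 and 118.8 CPM in WT and KO melanoblast-like cells, at 302 and 331 in glial-like cells, and at 623 and 821 in mesenchymal-like cells. The log2 ratios were 0.45 (0.10 to 0.80), 0.13 (−0.06 to 0.33) and 0.40 (0.26 to 0.53), so only the glial-like interval spanned zero. The melanoblast ratio was 0.16 (−0.46 to 0.74) after thinning and 0.86 (0.36 to 1.34) without clusters mostly of 1 library. Mesenchymal-like cells had the highest *Jun* level in both libraries, with macrophage-like cells overlapping them in WT.

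*Junb* encodes the AP-1 subunit that can restrain the activity of JUN. Its levels were 53.7 and 41.2 CPM in WT and KO melanoblast-like cells, 162 and 207 in glial-like cells, and 517 and 642 in mesenchymal-like cells. The melanoblast ratio was −0.38 (−0.96 to 0.16) and so had no clear direction. It was 0.74 (0.31 to 1.16) when each library was clustered alone, with 351 WT and 146 KO cells in place of 534 and 139. After thinning to 2000 UMIs it was −1.60 (−3.27 to −0.29). The glial-like and mesenchymal-like ratios were 0.35 and 0.31 with intervals above zero. Mast cell-like cells of the WT library held most *Junb*, 1538 CPM, where it made up 35.05% of the UMIs of the 8 genes, against 12.7% in melanoblast-like cells.

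*Egr1* encodes a zinc-finger transcription factor that answers to serum and growth factors. Its levels in melanoblast-like cells were 43.9 CPM for WT and 78.8 for KO, and they were 151 and 217 in glial-like cells, and 459 and 634.5 in mesenchymal-like cells. The log2 ratios were 0.85 (0.39 to 1.30), 0.52 (0.26 to 0.77) and 0.47 (0.31 to 0.62), all above zero. Without clusters mostly of 1 library the melanoblast ratio was 0.38 (−0.40 to 1.11), and the mesenchymal-like one was 0.23 (0.05 to 0.41) when each library was clustered alone. In contrast to *Fos*, *Egr1* was low in WT neutrophil-like cells (103 CPM) and highest in mesenchymal-like cells of both libraries, with endothelial-like cells (317) overlapping them in WT.

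*Atf3* encodes a factor of the ATF/CREB family that is induced by many stresses and often represses its targets. Melanoblast-like cells had 3 *Atf3* UMIs in 534 WT cells and 11 in 139 KO cells, 1.19 and 12.9 CPM, a log2 ratio of 3.45 with a wide interval (1.53 to 5.93). Glial-like cells had 49.45 and 84.5 CPM, a ratio of 0.77 (0.34 to 1.21), and mesenchymal-like cells 41.2 and 57.4, a ratio of 0.48 (−0.05 to 1.02). The share of glial-like cells with an *Atf3* UMI was 12.28% in WT and 12.99% in KO. After thinning it was 7.317% and 6.504%, so the shares did not follow the glial-like ratio. The highest WT level was that of neutrophil-like cells (132 CPM), which overlapped macrophage-like cells (91.45), while mast cell-like cells had 1 UMI. Among melanoblast-like cells, 0.562% had an *Atf3* UMI in WT and 6.475% in KO, and 0 of 19 KO red-cell-like cells had one, with an upper limit of 17.65%. After thinning every cell to 2000 UMIs, 1 *Atf3* UMI was left in each library's melanoblast-like cells, so nothing can be read from it at equal depth.

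*Ier2*, a small nuclear regulator, did not follow the others. It stood at 108.7 and 76.5 CPM in WT and KO melanoblast-like cells, 158 and 129.7 in glial-like cells, and 647 and 635 in mesenchymal-like cells. The log2 ratios were −0.51 (−0.92 to −0.11), −0.29 (−0.58 to 0.01) and −0.03 (−0.17 to 0.11), so it was lower in KO in melanoblast-like cells and had no clear direction in mesenchymal-like cells. Under the 11 alternatives listed with the methods the melanoblast ratio ran from −1.31 to −0.44, and 2 of them left its interval. Neutrophil-like cells showed 363 CPM in WT and 154 in KO (−1.24, −1.98 to −0.55), but the 9 neutrophil markers in this type summed to 26272 CPM in WT and 104688.5 in KO and the monocyte or dendritic markers to 16068 and 11324, so its make-up differed between the libraries. *Ier2* made up 25.75% of the 8 genes' UMIs in WT melanoblast-like cells and 13.95% in KO ones, while *Fos* made up 24.3% and 33.9%, so the make-up of the signal differed between the libraries and not only its size.

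*Dusp1* encodes a phosphatase that switches off p38 and JNK kinases, and so dampens the signal that induces it. Its level was 17.8 and 24.7 CPM in WT and KO melanoblast-like cells, 59.8 and 82.0 in glial-like cells, and 165 and 205 in mesenchymal-like cells. The ratios were 0.47 (−0.35 to 1.25), 0.46 (0.04 to 0.87) and 0.31 (0.05 to 0.58), so the melanoblast interval spanned zero and the other 2 began just above it. Under the alternatives listed with the methods the melanoblast ratio ran from 0.26 to 1.55. The mesenchymal-like ratio was −0.34 when only shared clusters were used at equal weight, so its direction depends on which clusters are counted. Like *Junb*, *Dusp1* was highest in mast cell-like cells in WT (983 CPM), ahead of neutrophil-like cells (701) and macrophage-like cells (361), with all 3 intervals apart.

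Summed over the 8 genes, the KO library was higher in each of the 3 main cell types. Melanoblast-like cells had 1068 UMIs in WT and 466 in KO, at log2 0.38 (0.22 to 0.54), and the ratios of glial-like and mesenchymal-like cells were 0.29 (0.20 to 0.37) and 0.37 (0.32 to 0.43). Without clusters mostly of 1 library the melanoblast-like ratio was 0.19 (−0.06 to 0.44), so its interval then spanned zero, and the mesenchymal-like one was 0.24 (0.17 to 0.30). Macrophage-like cells had 3362 and 3603 CPM, a ratio of 0.10 (−0.03 to 0.23), and neutrophil-like cells −0.14 (−0.28 to 0.00), so these types showed no clear difference. Keratinocyte-like cells were lower in KO, 2361 against 1141 CPM (−1.05, −1.27 to −0.82), but with only 12 WT cells. Melanoblast markers there summed to 1277 CPM in WT and 216 in KO and keratinocyte markers to 23795 and 42266, so the make-up of this type differed too. Adipocyte-like cells had 1088 and 3269 CPM, with only 8 KO cells. Mesenchymal markers summed to 1874 CPM in WT and 6303 in KO adipocyte-like cells, and to 139 and 2886 in macrophage-like cells (7 and 9 of 9 detected). The part of these differences, and of the make-up of the neutrophil-like and keratinocyte-like cells, in the ratios was not tested.

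These shifts were small beside the fold used for all genes. Of genes with at least 20 UMIs in a type, a log2 ratio of 1 or more was passed by 3.86% of 8134 genes upward and 4.2% downward in melanoblast-like cells, and 0 of the 7 members with enough UMIs passed it in either direction. In glial-like cells 3.87% of 8595 genes passed upward and 2.54% downward, and again 0 of 8 members. In mesenchymal-like cells 6.13% of 8309 genes passed upward and 2.86% downward, and 1 of 8 members, *Fosb*, passed upward. These counts depend on the settings, since *Fosb* there fell to 0.76 under an alternative listed with the methods. In melanoblast-like cells *Egr1* reached 1.18, *Dusp1* 1.55, *Fosb* −1.26, *Ier2* −1.31 and *Junb* −1.60 under such alternatives. *Hspa1a* and *Hspa1b* had too few UMIs in all 3 types, as had *Atf3* in melanoblast-like cells. The members that were counted had median log2 ratios of 0.45, 0.40 and 0.43 in the 3 types, against −0.01, −0.01 and 0.00 over all genes, and 5 of 7, 7 of 8 and 7 of 8 lay above zero, against 48.7%, 48.75% and 49.7% of all genes.

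**Figure D2:**
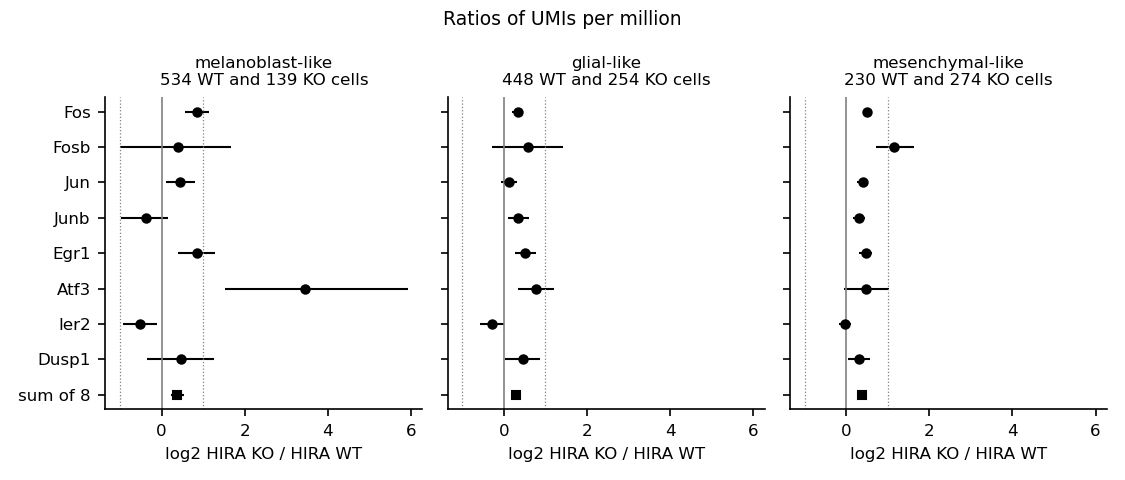
Log2 ratios of HIRA KO to HIRA WT levels of the 8 immediate-early genes and of their sum in the 3 main cell types. Points are ratios with 95% conditional binomial intervals, dotted lines mark a log2 ratio of 1 in either direction, and *Ier2* is the only gene at or below zero in all 3 panels.

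The ratios were also computed as if every UMI of a mesenchymal marker in melanoblast-like and glial-like cells were stray RNA, a premise that was not tested. Melanoblast-like cells held the mesenchymal markers at 1.06% of the mesenchymal-like level in WT and at 3.11% in KO. At those shares mesenchymal RNA would bring 37.8 of the 422 CPM of the immediate-early genes in WT and 144 of the 548 in KO, which leaves 384 and 404, a log2 ratio of 0.07 in place of 0.38. In glial-like cells the markers stood at 10.99% and 14.4%, and the same step left 1042 and 1081 CPM, a ratio of 0.05 in place of 0.29. Cells of either type may express some of these markers themselves, so the shares are upper ones, and no cause of the ratios follows from them. Per cell, the markers averaged 7.73 UMIs in WT and 14.7 in KO glial-like cells, and 0.96 and 4.12 in melanoblast-like cells. Red-cell-like cells, 5 in WT and 19 in KO, averaged 0.80 and 3.16. Glial-like cells thus stood much further above red-cell-like cells than melanoblast-like cells did, and their allowance is the looser bound. In melanoblast-like cells this step gave *Fos* 0.60, *Egr1* 0.60, *Jun* 0.22, *Dusp1* 0.19, *Fosb* −0.12, *Ier2* −0.84, *Junb* −1.19 and *Atf3* 3.89. In glial-like cells it gave *Atf3* 0.76, *Dusp1* 0.33, *Egr1* 0.31, *Fos* 0.12, *Junb* 0.11, *Jun* −0.14, *Fosb* −0.59 and *Ier2* −1.19. *Fosb* in both types and *Jun* in glial-like cells thus changed sign. This allowance was chosen after seeing the data.

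Red-cell-like cells gave a reading of stray RNA that does not use these markers. It takes their UMIs of the 8 genes as stray, a premise that was not tested. The 19 KO cells averaged 1.895 UMIs of the 8 genes per cell (1.33 to 2.62) at a median of 7295 UMIs, and the 5 WT cells held 1 UMI between them, 0.2 per cell (0.01 to 1.11), at a median of 4148. Melanoblast-like cells averaged 2 per cell in WT (median depth 4335) and 3.35 in KO (3.06 to 3.67, median depth 5654), so the KO red-cell-like average was 56.5% of the KO melanoblast-like one. In KO, 42.1% of red-cell-like cells had a *Fos* UMI (20.25% to 66.5%) against 54.0% of melanoblast-like cells, and 36.8% had an *Ier2* UMI against 31.65%. Before thinning, the KO melanoblast share for *Ier2* thus lay below that of the 19 red-cell-like cells. Those for *Fos* and *Egr1* (30.2% against 26.3%) lay within the wide red-cell-like intervals. The share for *Jun* was 15.8% of KO red-cell-like cells (3.38% to 39.6%) and 37.4% of melanoblast-like cells, also within that interval. In KO mesenchymal-like cells, which averaged 26.8 UMIs of the 8 genes per cell against 17.4 in WT, the red-cell-like average came to 7.06%, and in KO glial-like cells to 23.0% (3.81% in WT).

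The share of cells with a UMI depends on depth, so it was also read after thinning to 2000 UMIs per cell. *Fos* UMIs were then found in 16.6% (WT) and 24.5% (KO) of the melanoblast-like cells, 31.95% and 40.65% of glial-like cells, and 66.5% and 74.0% of mesenchymal-like cells. KO red-cell-like cells stood at 26.3% after thinning, 5 of 19 cells, so the share alone does not set *Fos* in KO melanoblast-like cells apart from them. *Jun* was found in 17.4% (WT) and 18.0% (KO) of them, *Egr1* in 6.68% and 14.4%, *Junb* in 9.73% and 2.88%, and *Ier2* in 17.9% and 12.95%, while for each of these 4 genes 1 of the 19 red-cell-like cells had a UMI (5.26%). A count of 1 in 19 has an interval of 0.133% to 26.0%, so the KO shares of all 4 genes lay within it. As levels, KO red-cell-like cells had 86.8 CPM of *Fos* (43.3 to 155) and 31.55 of *Jun* (8.60 to 80.8), below the KO melanoblast-like levels of 185.9 and 118.8 with intervals apart. Those of *Junb* (15.8), *Egr1* (63.1) and *Ier2* (71.0) had intervals that overlapped the melanoblast-like ones. These levels are per UMI and not per cell, and KO red-cell-like cells were deeper (median 7295 against 5654 UMIs). *Fos* had 11 UMIs in 19 red-cell-like and 158 in 139 melanoblast-like cells, and intervals per cell were not computed for single genes.

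Within clusters the sum of the 8 genes was not shifted alike. In the melanoblast-like cluster 2, whose leading genes were the cell-cycle genes *Pbk* and *Hist1h2ae* with *Pmel*, WT had 487.5 and KO 497 CPM (log2 0.03, −0.29 to 0.34). In the melanoblast-like cluster 15, WT had 344 and KO 536 (0.64, 0.19 to 1.08). The mesenchymal-like clusters 3, 5 and 14 showed ratios of 0.15, 0.25 and 0.22, each below the pooled 0.37, and cluster 14, which held 23 WT and 125 KO cells, had the higher levels, 4606 and 5378 CPM. Among glial-like clusters the ratios were 0.37, 0.34 and 0.50 in clusters 4, 6 and 13, and −0.08 (−0.34 to 0.18) in cluster 7. Glial-like cluster 10 had 76 WT but only 15 KO cells and was not compared. The mesenchymal-like clusters 3, 5 and 14 were thus higher in KO by less than the pooled mesenchymal-like ratio, and equal weights for them gave 0.21, while glial-like clusters 4, 6 and 13 lay above the pooled glial-like 0.29. The other mesenchymal-like cluster, 19, had only 19 WT cells and was not compared (5319.9 CPM in its 25 KO cells).

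Glial-like cells were split most of all. Cluster 6 had a summed level of 3318.5 CPM of the 8 genes in WT and 4187 in KO, while the other glial-like clusters lay between 501 and 1217 in WT and between 706.5 and 1151 in KO. The same cluster held the mesenchymal markers at 6193 and 8903 CPM, against 306 to 930.5 in WT and 795 to 1316 in KO in the other glial-like clusters. Its median mitochondrial share was 3.58% in WT (2.75% to 3.49% in the other glial-like clusters) and 3.90% in KO (3.23% to 3.92%), so it was the highest in WT only, and its median WT depth of 3713 UMIs lay within theirs (3153 to 4005.5). The part of its mesenchymal RNA and mitochondrial share in its immediate-early level was not tested.

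**Figure D3:**
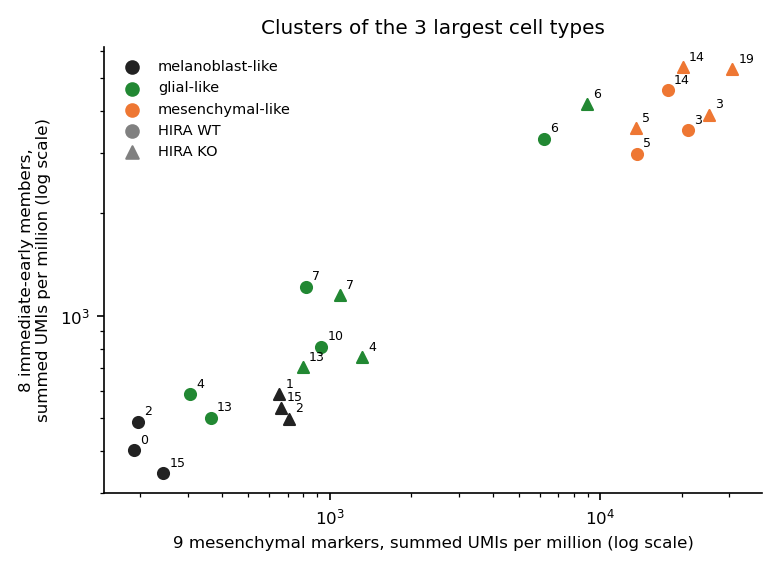
Summed level of the 8 immediate-early genes against the summed level of 9 mesenchymal markers, both in CPM on log scales, for each cluster and library with at least 20 cells. Circles are HIRA WT and triangles HIRA KO, numbers name clusters, and glial-like cluster 6 lies nearer to the mesenchymal-like clusters than to the other glial-like ones.

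The heat-shock genes were nearly silent in the 3 main cell types. *Hspa1a* encodes an inducible HSP70 chaperone that refolds damaged proteins, and *Hspa1b* encodes an almost identical protein from a neighbouring copy. Melanoblast-like cells had 5 *Hspa1a* UMIs in WT and 1 in KO (1.98 and 1.18 CPM, log2 −0.75, −6.31 to 2.41), and 0 of *Hspa1b* in both. Glial-like cells had 11 and 2 *Hspa1a* UMIs and 1 and 0 of *Hspa1b*, a log2 ratio of the sum of −2.13 (−5.33 to 0.04). Mesenchymal-like cells had 9 and 10 *Hspa1a* UMIs and 0 and 1 of *Hspa1b*, a ratio of the sum of −0.22 (−1.63 to 1.23). No difference between the libraries was detectable at this depth in any of these types, while the same cells held between 466 and 7351 UMIs of the 8 immediate-early genes.

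Heat-shock RNA was high in keratinocyte-like cells of the KO library. There *Hspa1a* had 48 UMIs and *Hspa1b* 39 in 81 cells, 114 CPM together (91.6 to 141), and 50.6% of the cells had at least 1 UMI. The 12 WT keratinocyte-like cells had 3 UMIs, 36.1 CPM (7.45 to 106), and the log2 ratio of 1.66 (0.07 to 3.97) is wide. After thinning to 2000 UMIs, 19.7% of the KO keratinocyte-like cells still had one, against 0.7435% of KO mesenchymal-like and 0 of 139 KO melanoblast-like cells, so the difference between cell types was also there at equal depth. The same keratinocyte-like cells had 1141 CPM of the immediate-early genes, less than KO glial-like cells, so the heat-shock and the immediate-early genes ranked the cell types differently. Among WT types with at least 20 cells, macrophage-like cells had the highest level, 30.5 CPM from 18 UMIs (18.1 to 48.2), and the 19 KO macrophage-like cells had 0 UMIs (up to 21.5 CPM), which puts the log2 ratio at −0.35 or below.

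Counts of the 2 copies need care, since reads that fit both genes equally well are dropped. Of 50-base windows along the annotated transcripts, 58.8% of those of *Hspa1a* and 62.3% of those of *Hspa1b* also occur in the other copy. In the last 500 bases, where 3′ tags mostly fall, 0 of 451 windows of either copy were shared, and the last shared window ended 786 bases before the end of *Hspa1a* and 619 before that of *Hspa1b*. The copies lie on chr17:34969190-34972156 and chr17:34956436-34959238 of GRCm38, on the minus strand and 9951 bases apart. How the authors' gene models end was not recorded with the counts, so the sum is the safer value.

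Cells of a type varied widely in the 8 genes. After thinning, the median count of the 8 genes per 2000 UMIs was 1 in melanoblast-like cells of both libraries, 1 and 2 in glial-like cells, and 5 and 8 in mesenchymal-like cells. The highest counts were 17 and 8, 36 and 23, and 42 and 34. The ratio of variance to mean, which is 1 for pure counting error at a constant level, was 2.004 and 1.77 in melanoblast-like cells, 8.37 and 6.75 in glial-like cells, and 6.78 and 5.96 in mesenchymal-like cells. Glial-like cells were thus the most uneven of the 3 by this ratio. The top 10% of them held 53.1% of the counts in WT and 48.6% in KO. This was 42.4% and 39.9% in melanoblast-like cells, and 31.6% and 26.6% in mesenchymal-like cells. Both measures depend on the mean count, and glial-like cells mix clusters of different level, so they do not compare like cells. A ratio of variance to mean above 1 also means that intervals from counting error alone are too narrow for the summed level and its log2 ratio. By how much was not computed. The share of cells with none of the 8 genes was 49.4% and 43.9% in melanoblast-like, 35.6% and 24.4% in glial-like, and 12.8% and 6.32% in mesenchymal-like cells.

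Members varied together across cells where they were abundant. Across cells of 1 type and library, thinned to equal depth, the median Spearman correlation over the 28 pairs was 0.21 in 410 WT and 0.16 in 246 KO glial-like cells, and 0.23 in 218 WT and 0.17 in 269 KO mesenchymal-like cells. In melanoblast-like cells it was 0.05 and −0.02, where counts were too sparse to read. *Fos* and *Egr1* formed the closest pair, at 0.51 in WT and 0.44 in KO glial-like cells. In mesenchymal-like cells of WT, *Fos* went with *Junb* (0.48) and *Ier2* (0.46), which stood at 0.31 and 0.24 in KO, where *Jun* (0.44) and *Egr1* (0.43) went with *Fos* the most. These cells share a library, and the pairs share genes, so the values are descriptions. A type also mixes clusters of different level. In WT, *Fos* stood at 1437 CPM in glial-like cluster 6 and at 135 to 342 in the other glial-like clusters. The part of this mixture in the correlations was not tested. The summed count had correlations between −0.18 and 0.24 with depth and with the mitochondrial share of a cell.

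Among 940 other genes, *Jund* was the one most like the 8 genes across cells. Its mean correlation over the 3 cell types and both libraries was 0.30, and the single values ranged from −0.06 to 0.52. *Jund* encodes a further AP-1 subunit. It was followed by *Sparc* (0.22) and *Serpinh1* (0.13), and the median of all 940 was −0.02. Of the 10 genes most alike, *Jund* was on the list of other immediate-early genes and *Serpinh1* on that of other heat-shock and chaperone genes. *B2m* was on that of housekeeping genes, and the shares of these lists among the 940 genes are not given here. *Sparc* and *Serpinh1* act in the making of extracellular matrix, and the correlation does not separate a link with the immediate-early genes from a mixture of clusters within a type.

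A list of 47 other immediate-early genes, 46 of them in the tables, had smaller median log2 ratios than the members, 0.23, 0.18 and 0.21. In melanoblast-like cells 3 of 30 genes with at least 20 UMIs passed it upward and 0 downward, against 3.86% and 4.2% of all genes. In glial-like cells 6 and 1 of 30 did, against 3.87% and 2.54%, and in mesenchymal-like cells 5 and 0 of 34, against 6.13% and 2.86%. *Klf2*, a factor that answers to flow and to cytokines, stood at 62.7 CPM in WT and 271 in KO mesenchymal-like cells (2.11, 1.74 to 2.49). *Socs3*, an inhibitor of cytokine signalling, stood at 42.1 and 101 there (1.26, 0.78 to 1.76). *Nr4a1*, an orphan nuclear receptor, went the other way, at 138 and 99.0 CPM (−0.48, −0.81 to −0.15).

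Among genes of that list with at least 50 UMIs, the highest ratios in glial-like cells were those of *Btg2* (20.8 and 47.7 CPM, 1.20) and *Zfp36* (34.2 and 77.0, 1.17), which encode regulators of growth and of RNA decay. The lowest of these were *Klf10* (−0.77, −1.75 to 0.14) and *Ier3* (−0.50, −0.92 to −0.09). In melanoblast-like cells, *Cebpb* (0.49) and *Klf6* (0.40) were the highest and *Dusp6* (−0.46) and *Ier3* (−0.43) the lowest at that minimum, and all 4 intervals spanned zero. *Klf2* (1.85), *Gadd45g* (1.45) and *Zfp36l2* (1.37), which passed the fold in melanoblast-like cells, had fewer UMIs there. *Ier3* went the other way in mesenchymal-like cells (1.10, 0.62 to 1.59). Of the most abundant genes of the list in melanoblast-like cells, *Btg1* (644 and 707 CPM) and *Zfp36l1* (232 and 248) had intervals across zero, and *Jund* (339 and 410.5) was higher in KO at 0.28 (0.09 to 0.46). In mesenchymal-like cells *Jund* had 946.5 and 1230.0 CPM (0.38, 0.27 to 0.49) and *Cyr61*, a secreted matrix protein, 731 and 652 (−0.17, −0.30 to −0.03).

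The list of 33 other heat-shock and chaperone genes lay near or below zero. The 3 main types, in the order used above, had median log2 ratios of −0.08, −0.20 and −0.07, with 2, 1 and 1 genes past the fold upward and 0, 2 and 0 downward, of 30, 30 and 29 with enough UMIs. The shares over all genes were 3.86%, 3.87% and 6.13% upward and 4.2%, 2.54% and 2.86% downward. *Hspb1* was past it upward in all 3, with *Cryab* in melanoblast-like cells, and *Dnajb1* and *Hsph1* downward in glial-like cells. *Hspa8*, the constitutive HSP70 gene, stood at 1544 and 1299.9 CPM in melanoblast-like cells (−0.25), 1215 and 873 in glial-like cells (−0.48), and 1258 and 1009 in mesenchymal-like cells (−0.32), lower in KO in all 3. *Dnajb1*, which encodes a heat-inducible partner of HSP70, was lower in KO in melanoblast-like cells (−0.71, −1.41 to −0.07) and glial-like cells (−1.10, −1.69 to −0.54) but not in mesenchymal-like cells (73.5 and 84.5 CPM), while *Hsp90ab1* was at 0.00, −0.06 and −0.01. *Hspb1*, a small heat-shock protein, had 6 UMIs in WT and 48 in KO glial-like cells (3.45, 2.23 to 4.97). It stood at 1766 CPM in KO keratinocyte-like cells, and the keratinocyte markers in glial-like cells summed to 86.1 CPM in WT and 602 in KO, led by *Krt10* in both. The part of stray keratinocyte RNA in the *Hspb1* ratio was not tested. *Cryab*, another small heat-shock protein, was most abundant in glial-like cells, at 527 and 377 CPM (−0.48, −0.65 to −0.32).

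The 16 upstream regulators, kinases and transcription factors that act on these genes, had median log2 ratios of 0.09, −0.16 and −0.07, with 0 past the fold upward in all 3 types and 1, 1 and 0 downward (*Mkl1* in melanoblast-like and *Hsf2* in glial-like cells), of 16, 13 and 14 with enough UMIs and beside the same shares over all genes. *Map2k1*, which encodes a kinase that activates ERK, was lower in KO in glial-like cells (114 and 81.2 CPM, −0.48, −0.85 to −0.12) and in mesenchymal-like cells (−0.76, −1.44 to −0.09). The 8 housekeeping genes had medians of −0.12, −0.07 and −0.15. Of the nuclear RNAs, *Malat1* stood at 11961 and 15523 CPM in melanoblast-like cells (0.38), and its ratios were 0.41 and 0.14 in glial-like and mesenchymal-like cells. *Neat1* was at 0.60, 0.30 and −0.76. The melanoblast and glial ratios of *Malat1* were thus as large as those of the 8 immediate-early genes, and the part of nuclear RNA content in the results was not tested.

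The members are compact genes. Their transcripts with the longest coding sequence in GENCODE vM21 span a median of 3078 bases of genome with a median of 1.5 exons, against 15747 bases and 7 exons over 21842 protein-coding genes. *Jun*, *Junb*, *Ier2*, *Hspa1a* and *Hspa1b* have 1 exon each. *Atf3* is the longest, at 13045 bases. The median spliced length was 2455.5 bases for the members and 2541.5 for all genes, so 5 of the 10 members lack introns while their spliced length is close to that of other genes.

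RefSeq promoter sequences (GRCm38.p6) were at hand for 8 of the 10 members, without *Egr1* and *Ier2*. The 250 bases before the start were searched on both strands. The full cAMP response element TGACGTCA was found in 1 of 8 members, *Dusp1*, and in 1.55% of all 32851 promoters. Its core TGACG, which the full element contains, was found in *Fos*, *Fosb*, *Junb*, *Atf3* and *Dusp1*, 5 of 8, and in 17.8% of all promoters. The heat-shock element, written as GAANNTTC or TTCNNGAA, was found in *Hspa1a*, *Hspa1b* and *Jun*, 3 of 8, and in 12.8% of all promoters. The TATA box TATAAA was found in *Fos* and in 12.4% of all promoters, and the CCAAT box in *Jun*, *Junb*, *Hspa1a* and *Hspa1b* and in 33.85% of all. The AP-1 site TGANTCA and the CArG box, the binding letters of SRF, were found in 0 of 8, and in 6.75% and 1.47% of all promoters. A match describes letters and not binding, and its absence covers only this window.

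The promoters of *Fos*, *Fosb*, *Atf3* and *Dusp1* are shown for the core element, and that of *Hspa1a* for the heat-shock element. Capitals mark the core TGACG or its reverse complement and the TATA box in *Fos*, the core in *Fosb* and *Atf3*, the full element in *Dusp1*, and the heat-shock element in *Hspa1a*. They lie at chr12:85473640-85473889 (plus strand), chr7:19310046-19310295 (minus), chr1:191183334-191183583 (minus), chr17:26508473-26508722 (minus) and chr17:34972157-34972406 (minus).
Fos: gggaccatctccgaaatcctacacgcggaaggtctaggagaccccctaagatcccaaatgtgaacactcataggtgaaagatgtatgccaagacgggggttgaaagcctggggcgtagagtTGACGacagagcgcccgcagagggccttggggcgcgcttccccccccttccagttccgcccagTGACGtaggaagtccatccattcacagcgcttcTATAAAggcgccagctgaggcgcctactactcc
Fosb: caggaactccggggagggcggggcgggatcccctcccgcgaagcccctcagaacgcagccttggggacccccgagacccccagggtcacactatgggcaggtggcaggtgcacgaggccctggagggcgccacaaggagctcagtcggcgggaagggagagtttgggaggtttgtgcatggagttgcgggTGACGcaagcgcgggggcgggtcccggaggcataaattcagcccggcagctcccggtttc
Atf3: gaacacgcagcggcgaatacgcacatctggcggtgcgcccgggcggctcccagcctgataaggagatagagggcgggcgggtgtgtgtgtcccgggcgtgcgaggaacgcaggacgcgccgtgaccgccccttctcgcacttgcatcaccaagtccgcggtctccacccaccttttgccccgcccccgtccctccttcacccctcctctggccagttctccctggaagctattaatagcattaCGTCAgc
Dusp1: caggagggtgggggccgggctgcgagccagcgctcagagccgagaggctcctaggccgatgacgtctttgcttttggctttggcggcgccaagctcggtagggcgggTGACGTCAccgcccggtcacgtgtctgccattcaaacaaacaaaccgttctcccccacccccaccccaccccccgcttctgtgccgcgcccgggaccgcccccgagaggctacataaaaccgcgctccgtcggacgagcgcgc
Hspa1a: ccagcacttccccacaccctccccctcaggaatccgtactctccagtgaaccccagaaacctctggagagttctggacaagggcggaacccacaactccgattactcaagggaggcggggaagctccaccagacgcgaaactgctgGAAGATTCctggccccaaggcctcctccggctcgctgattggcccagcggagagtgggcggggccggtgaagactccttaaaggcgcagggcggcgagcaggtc
The core in *Fos* began 129 and 66 bases before the start, and the TATA box 33 bases before it. The core in *Fosb* began 60 bases and that in *Atf3* 7 bases before the start. The full element of *Dusp1* began 143 bases before its start. The heat-shock element began 104 bases before the start in both *Hspa1a* and *Hspa1b*, and their promoters differed at only 3 of 250 positions.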

How the data were processed

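The authors counted unique molecular identifiers (UMIs) with Cell Ranger 2.2.0 against mm10 extended by tdTomato and Cre, and the deposited values are raw UMI counts per gene and cell barcode of 1 HIRA WT and 1 HIRA KO library (7073939 and 5049514 UMIs). The members and lists were chosen with earlier results of these data known. Cells with at least 100 genes, at most 40000 UMIs and at most 10% mitochondrial UMIs were kept. This left out 6 WT and 18 KO barcodes, and doublets were kept. Counts of genes found in at least 3 cells were brought to a total of 10000 in each cell and logged. Of 2000 variable genes, the 1966 that were not held out went into clustering over both libraries with 30 principal components, 15 neighbours, Leiden resolution 1 and seed 0. The 99 held-out genes were the members, the other stress genes, the sex-linked genes, *Hira* and the reporters. A cluster took the cell type with the largest share of raised markers (10% of cells with a UMI and 1 log2 unit above other cells after adding 10 CPM) and needed 3 raised markers.

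UMIs were summed per cell type and library and divided by the UMIs of all genes there (CPM). Types with at least 20 cells in a library were ranked. No test was made, since 1 library of each genotype was analysed here. All members were described. Of each other list and main type, among genes with at least 50 UMIs, the rule named the 2 highest and the 2 lowest ratios and the 3 highest levels, and the 10 genes most like the members by mean Spearman correlation across cells thinned to 2000 UMIs, among genes with at least 100 UMIs. The text gives a part of these. Lists were other immediate-early genes, other heat-shock and chaperone genes, upstream regulators, housekeeping genes, nuclear RNA and markers of 14 cell types. Alternatives changed the cell filters, resolution, joint clustering, held-out genes, thinning, averaging over cells, scaling, Scrublet doublets, clusters mostly of 1 library, and the UMI minimum for counts of genes. 2 more, equal weights for shared clusters and an allowance for mesenchymal RNA, were chosen after seeing the data. Ratios and counts of genes past the fold were also run on simulated counts. Clustering ran in scanpy 1.11.5 with igraph 0.11.9 and anndata 0.12.19, figures in matplotlib 3.10.9, Scrublet with scikit-image 0.26.0, and intervals in scipy 1.17.1, all under Python 3.11.15 with pandas 2.3.3 and numpy 2.4.6. Gene structures came from GENCODE vM21 and promoters from RefSeq. Free RNA was not removed, since empty droplets were not used here.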

Additional observations from a re-analysis of the deposited data

Results flagged for a closer look

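Log2 ratios of HIRA KO to HIRA WT are given here for genes with intervals wholly above zero in at least 1 cell type and wholly below zero in another, among types with at least 10 cells and at least 1 UMI of the gene in each library. The summed heat-shock genes, at 1.66 in keratinocyte-like cells and with 0 KO counts in macrophage-like cells, are given in the results. None of these differences between cell types was tested, since 1 library of each genotype was analysed. The sum of the 8 immediate-early genes was higher in KO in the melanoblast-like (0.38), the glial-like (0.29) and the mesenchymal-like cells (0.37), and lower in keratinocyte-like cells (−1.05). *Fos* was at 0.86, 0.33 and 0.50 in the same 3 types and at −0.86 in keratinocyte-like cells. *Fosb* was at −1.75 in macrophage-like cells and 1.16 in mesenchymal-like ones. *Jun* was at 0.45 in melanoblast-like and 0.40 in mesenchymal-like cells, and at −0.46 in macrophage-like and −1.61 in keratinocyte-like cells. *Junb* was at −0.61 in neutrophil-like cells, at 0.37 in macrophage-like ones, and at 0.35 and 0.31 in the glial-like and mesenchymal-like ones. *Dusp1* was at 0.46 in glial-like and 0.31 in mesenchymal-like cells, and at −1.50 in keratinocyte-like cells. The keratinocyte-like values rest on 12 WT cells and the macrophage-like ones on 19 KO cells.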

How the results depend on the processing

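The log2 ratio of the summed immediate-early genes kept its sign in all 3 main cell types under all 11 alternatives listed with the methods, between 0.19 and 0.62 in melanoblast-like, 0.16 and 0.34 in glial-like and 0.24 and 0.40 in mesenchymal-like cells. It left its counting interval in some, and the cause was not tested. With at most 5% mitochondrial UMIs the mesenchymal-like ratio was 0.28 in place of 0.37. This type then held 150 KO cells in place of 274, so the ratio covers a different set of cells. With each library clustered alone the mesenchymal-like ratio was 0.25 (148 KO cells in place of 274). The melanoblast-like ratio was then 0.62 in place of 0.38 (351 WT cells in place of 534). Without clusters mostly of 1 library the mesenchymal-like and melanoblast-like ratios were 0.24 and 0.19 (−0.06 to 0.44). After thinning, the glial-like ratio was 0.16 in place of 0.29. With equal weights for shared clusters, chosen after seeing the data, the mesenchymal-like ratio was 0.21, and *Dusp1* there reversed to −0.34 from 0.31. The allowance for mesenchymal RNA, also chosen after seeing the data, gave log2 ratios of 0.0721 in melanoblast-like and 0.0526 in glial-like cells. Ranks in WT after thinning were 7 for glial-like, 6 for adipocyte-like, 4 for mesenchymal-like and 3 for macrophage-like cells, each 1 place from before. Genes past the fold depended on the UMI minimum by construction. With at least 50 UMIs, 89 passed upward and 93 downward in melanoblast-like, 90 and 66 in glial-like, and 181 and 72 in mesenchymal-like cells. With no filter and 0.5 added they were 2371 and 903, 2385 and 1499, and 2921 and 1512. Of 334 member ratios under alternatives, 303 stayed within the main interval, 30 left it with no clear sign turned, and 1 turned a sign that was clear. Besides *Dusp1*, signs turned for ratios whose main interval spanned zero: *Junb* (0.74, libraries clustered alone) and *Fosb* (−1.26, thinned) in melanoblast-like cells, the summed heat-shock genes in mesenchymal-like cells (0.28, thinned), and *Fosb* and *Jun* under the 2 alternatives chosen later. The summed heat-shock genes of melanoblast-like cells gave a ratio under only 8 of 11 alternatives, since a count was 0 in the rest. Scrublet called 9 WT and 6 KO cells doublets. Cells per type also depended on settings: with at least 500 genes per cell, 56 KO cells were melanoblast-like in place of 139.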
